A study of Bos taurus with 6 samples.

Results

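The genes described here are 10 genes of the major histocompatibility complex (MHC) pathways that put peptides on the cell surface: *B2M*, *TAP1*, *TAP2*, *TAPBP*, *NLRC5*, *CIITA*, *CD74*, *BOLA-DOA*, *PSMB8* and *PSMB9*. They were taken as a given list, which was chosen with earlier results of these data known. They were matched by symbol and Entrez identifier, and all 10 were found among the 19163 genes of the count table. The cells were F7, 1 line of bovine embryonic stem cells (bESCs) from in vitro fertilized Holstein Friesian embryos, grown on mouse embryonic fibroblasts (MEFs) of C57 mice. In MC-F7, labelled 1M, the feeder cells had been exposed to mitomycin C, an agent that ends cell division but leaves cells alive, and in MT-F7 they had been fixed with methanol, which kills them. Both groups were given the same medium, which held fibroblast growth factor and the WNT inhibitor IWR1, and both had been grown for 15 passages, but the medium was changed daily in MC-F7 and every other day in MT-F7. RNA was sequenced in 3 libraries per group, and no source says that these came from separate cultures, while the study's general statement on statistics speaks of technical replicates, so the p values measure the spread between libraries, which may be technical.

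Class I molecules, made of a heavy chain and beta-2-microglobulin, carry peptides cut from proteins of the cell's own cytosol. The proteasome cuts these peptides, the TAP transporter moves them into the endoplasmic reticulum, and tapasin holds the empty class I molecule at the transporter until a peptide is bound. Class II molecules carry peptides from the endosome in professional antigen-presenting cells, where the invariant chain CD74 guards the groove and the DM and DO proteins control its loading. NLRC5 and CIITA are related coactivators that switch on the class I and class II genes, and interferon gamma raises many genes of both pathways. Pluripotent stem cells are known for low surface MHC.

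The libraries held between 21958386 and 24933430 counts. A count of 3, taken as the smallest amount detected, stood for 0.116 to 0.140 counts per 1000000 (CPM, normalized by the TMM method), a limit that covers counting error only. The share of counts on the mitochondrial genome was 16.3%, 19.8% and 28.3% in MC-F7 against 23.2%, 18.0% and 27.9% in MT-F7, and replicate 3 was the highest of both groups. Of the pluripotent cell markers, 4 were in the count table, and their summed level was between 934 and 1559 CPM in MC-F7 and between 577 and 625 CPM in MT-F7. *POU5F1*, *NANOG* and *LIN28A* fell and *SALL4* did not pass the test, and *LIN28B*, found only in the TPM table, stood at 5.53 ± 1.36 TPM in MC-F7 and 5.69 ± 0.447 TPM in MT-F7 after rescaling to 1000000 per library. The 12 fibroblast markers summed to 332, 386 and 323 CPM in MC-F7 and to 535, 492 and 525 CPM in MT-F7, where 4 of the 11 tested rose and 0 fell. The 14 leukocyte markers found summed to 25.2, 22.6 and 22.5 CPM in MC-F7 and to 23.3, 22.2 and 27.5 CPM in MT-F7, and of the 6 tested 2 fell (*SPI1* and *CD79A*) and 2 rose (*LAPTM5* and *FCER1G*). Among them the B cell gene *MS4A1* had 0 counts in all 6 libraries, and the T cell gene *CD3E* had 0 counts in every MC-F7 library against 7, 8 and 1 in MT-F7. *SPI1*, a myeloid and B cell transcription factor, had 46, 45 and 24 counts in MC-F7 against 0, 0 and 2 in MT-F7, while *CSF1R*, a myeloid receptor too low to be tested, had 0, 0 and 3 in MC-F7 against 8, 9 and 9 in MT-F7. *SPI1* reached the filter on low counts only through MC-F7, where it was high. Of the 4 leukocyte markers that met the filter's minimum in every library, 1 fell and 2 rose. The part of these shifts in the results that follow was not tested. In bulk RNA, fewer cells of a type and less RNA per cell cannot be told apart. The study reported a lower share of reads aligned to the bovine genome in MC-F7 than in MT-F7. It proposed that fixed feeders reduced contamination by feeder cells. Whether RNA of the living mouse feeders added to the counts in MC-F7 was not tested.

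In the edgeR quasi-likelihood test, with an adjusted p under 0.05 as the threshold, 6 of the 9 genes tested fell in MT-F7 and 0 rose: *TAP2*, *B2M* and *PSMB8* of the class I pathway, and *CIITA*, *CD74* and *BOLA-DOA* of the class II pathway. *TAP1*, *TAPBP* and *PSMB9* did not pass, and *NLRC5* was too low to be tested. *BOLA-DOA* reached the filter on low counts only through MC-F7, where it was high, so it could be tested only because it differed. The other 8 met the filter's minimum in all 6 libraries, and 5 of them fell. Over all 13001 genes tested, 23.2% passed the threshold, 11.3% as lower and 11.9% as higher. In 8 of the 9 genes every MT-F7 library was below every MC-F7 library, which was so for 20.0% of all genes tested. The list was chosen with earlier results of these data known, so these shares are not a test of it. The median log2 fold change of the 9 genes, MT-F7 over MC-F7, was -1.33, with a range from -3.88 to -0.13, and -0.99 without *BOLA-DOA*, beside -0.003 over all genes tested. The other genes of antigen processing, described with their roles, were called about as often as all genes (22.9% of 48). As lower, 16.7% of these 48 passed, beside 11.3% of all genes tested. This share includes the class II chain genes *BOLA-DRA* and *BLA-DQB*, which reached the filter only through MC-F7, where they were high. Repeating the test without each library in turn left *TAP2*, *PSMB8*, *CIITA*, *CD74* and *BOLA-DOA* past the threshold in 6 of 6 fits and *B2M* in 3 of 6.

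**Figure D1:**
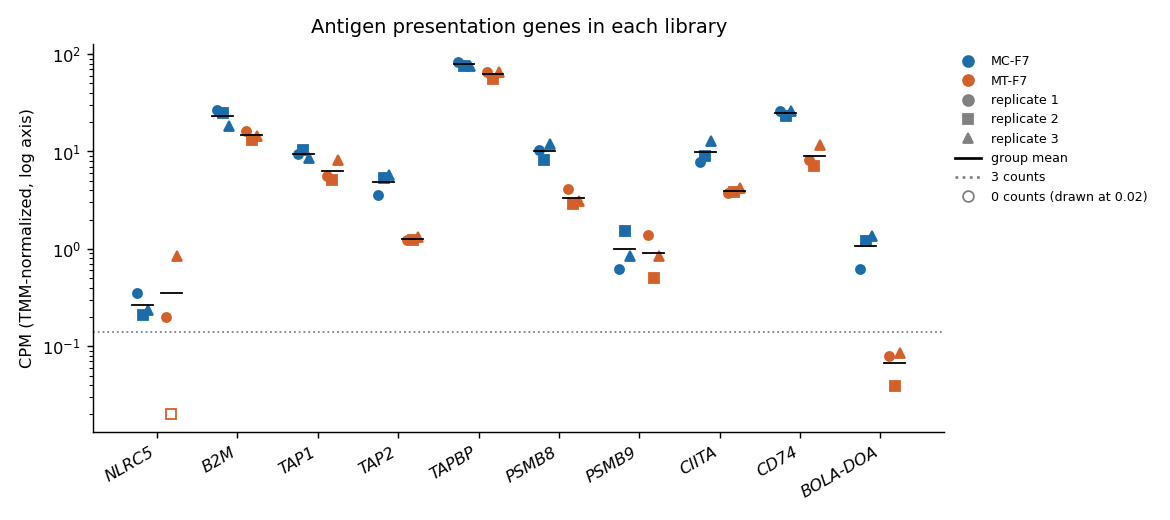
Levels of the 10 genes in each library, in TMM-normalized CPM on a log axis, with MC-F7 in blue, MT-F7 in orange, 1 symbol per replicate number and black lines for group means. The dotted line is the highest level that 3 counts stood for in any library (0.140 CPM), an open symbol is a library with 0 counts, and the groups overlap only for *NLRC5* and *PSMB9*.

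Among the class I genes, *B2M*, the light chain that every class I molecule needs to reach the surface, stood at 26.4, 24.9 and 18.3 CPM in MC-F7 and at 16.4, 13.2 and 14.5 CPM in MT-F7. Every MT-F7 library was thus below the lowest MC-F7 library, although replicate 3 of MC-F7 came close to replicate 1 of MT-F7. The mean fell from 23.2 ± 4.30 to 14.7 ± 1.61 CPM (SD, n = 3), a log2 fold change of -0.66 (SE 0.183, adjusted p = 0.0199). This call was the least stable of the 6: the adjusted p was 0.0687 without replicate 1 of MC-F7, 0.0934 without replicate 2 of MC-F7 and 0.0847 without replicate 2 of MT-F7, and limma on the deposited TPM gave 0.15. The row of *B2M* also held the same counts in all 6 libraries as that of *LOC783680*, which shares its Ensembl identifier, so the reads cannot be assigned between them.

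*NLRC5*, the class I coactivator, was barely detected. Its counts were 8, 5 and 5 in MC-F7 against 5, 0 and 20 in MT-F7, so that the highest and the lowest library both belonged to MT-F7. Summed over the group and adjusted for library size, the MC-F7 level was 0.788 times that of MT-F7, with a 95% counting interval from 0.405 to 1.5. A change in either direction was not detectable.

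The transporter is a pair of subunits, and *TAP2* passed the test while *TAP1* did not. *TAP2* stood at 3.58, 5.30 and 5.80 CPM in MC-F7 and at 1.24, 1.24 and 1.32 CPM in MT-F7. The MT-F7 libraries were nearly alike and lay far below the lowest MC-F7 library. The mean fell from 4.89 ± 1.16 to 1.26 ± 0.0466 CPM, 3.88-fold, with a log2 fold change of -1.95 (SE 0.289, adjusted p = 3.9e-04). Its counts equalled those of the neighbouring *LOC618733* in all 6 libraries under 1 Ensembl identifier, so reads of this pair cannot be told apart either. *TAP1* stood at 9.33, 10.2 and 8.60 CPM in MC-F7 and at 5.66, 5.06 and 8.15 CPM in MT-F7. The groups did not overlap, but replicate 3 of MT-F7 lay just below the lowest MC-F7 library. The means were 9.39 ± 0.819 and 6.29 ± 1.64 CPM, and the log2 fold change of -0.58 (SE 0.220, 95% interval -1.06 to -0.10) did not pass (adjusted p = 0.0759). Without replicate 3 of MT-F7 it was -0.82 with an adjusted p of 0.0152.

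Set against each other per unit of length, *TAP1* was 418, 309.8 and 238 per 100 *TAP2* in MC-F7 and 735.5, 657 and 994.5 per 100 *TAP2* in MT-F7. The ratio was higher in every MT-F7 library, with means of 322 ± 90.6 and 796 ± 176.5. The exact two-sided permutation test gave p = 0.1, the smallest that 3 libraries against 3 can give, and p = 0.18 after adjustment over the 9 ratios computed.

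*TAPBP* encodes tapasin, and it had the highest level of the 10 genes, with 83.8, 76.3 and 74.9 CPM in MC-F7 and 65.0, 55.5 and 66.0 CPM in MT-F7. All MT-F7 libraries were again below all MC-F7 libraries. The means were 78.3 ± 4.74 and 62.1 ± 5.78 CPM, and the log2 fold change of -0.34 (SE 0.145, 95% interval -0.65 to -0.02) did not pass the test (adjusted p = 0.117).

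Few partners of these genes in the class I pathway passed the test. Of 7 class I and class I-like heavy chain genes, 4 could be tested and 0 passed, with a median log2 fold change of -0.01. The gene listed as *BOLA* had 48, 48 and 44 counts in MC-F7 against 35, 36 and 35 in MT-F7, at a log2 fold change of -0.53 (adjusted p = 0.242). Class I heavy chain genes are near-identical copies of each other, so their counts are uncertain. Of 9 genes for loading and for folding in the endoplasmic reticulum, 8 could be tested, 1 fell and 0 rose, with a median of 0.19. The gene that fell was *ERAP1*, the aminopeptidase that trims peptides for class I. It stood at 13.4, 13.8 and 13.6 CPM in MC-F7 and at 4.62, 4.83 and 5.09 CPM in MT-F7, so that both groups were tight and far apart (log2 fold change -1.49, SE 0.179, adjusted p = 8.4e-05). Its relative *ERAP2*, too low to be tested, had 10, 10 and 4 counts in MC-F7 against 0, 0 and 3 in MT-F7.

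Of the immunoproteasome genes *PSMB8* passed the test and *PSMB9* did not, and the difference between their changes was not tested. *PSMB8*, which replaces the catalytic subunit encoded by *PSMB5* when the immunoproteasome is built, stood at 10.5, 8.25 and 12.0 CPM in MC-F7 and at 4.14, 2.86 and 3.10 CPM in MT-F7. The highest MT-F7 library was well below the lowest MC-F7 library. The mean fell from 10.2 ± 1.87 to 3.37 ± 0.683 CPM, 3.04-fold, with a log2 fold change of -1.60 (SE 0.234, adjusted p = 3.4e-04). *PSMB9*, which replaces *PSMB6*, had 14, 37 and 18 counts in MC-F7 against 35, 13 and 20 in MT-F7. The libraries of both groups were interleaved. Its log2 fold change was -0.13, with a 95% interval from -1.20 to 0.93 (adjusted p = 0.875), and it turned to 0.32 without replicate 2 of MC-F7 and to 0.17 without replicate 2 of MT-F7.

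The counterparts of these subunits were far more abundant and did not pass the test. The log2 fold change was -0.11 for *PSMB5* (adjusted p = 0.712), 0.10 for *PSMB6* (adjusted p = 0.682) and -0.08 for *PSMB7* (adjusted p = 0.781). *PSMB10*, the third immunoproteasome subunit, which replaces *PSMB7*, was at 29.1 ± 1.78 CPM in MC-F7 and 36.0 ± 5.22 CPM in MT-F7 and did not pass (log2 fold change 0.31, adjusted p = 0.187). Of the 9 counterparts and activators, 1 rose and 0 fell, with a median of -0.03. The gene that rose was *PSME1*, a subunit of the proteasome activator PA28, from 49.0 ± 6.45 to 67.4 ± 3.70 CPM (log2 fold change 0.46, adjusted p = 0.0437), and it passed in 2 of the 6 fits that left out a library.

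Per unit of length, *PSMB8* was 7.57, 6.70 and 14.5 per 100 *PSMB5* in MC-F7 and 3.62, 2.61 and 3.30 per 100 *PSMB5* in MT-F7. The immune form was therefore the rarer subunit in every library, and rarer in MT-F7 than in any MC-F7 library (exact permutation p = 0.1, adjusted p = 0.18). *PSMB9* was below 1 per 100 *PSMB6* in every library, between 0.256 and 0.840, with overlapping groups (exact permutation p = 0.7). *PSMB10* was 11.3, 11.2 and 15.5 per 100 *PSMB7* in MC-F7 against 13.3, 15.1 and 21.0 in MT-F7 (exact permutation p = 0.3).

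**Figure D2:**
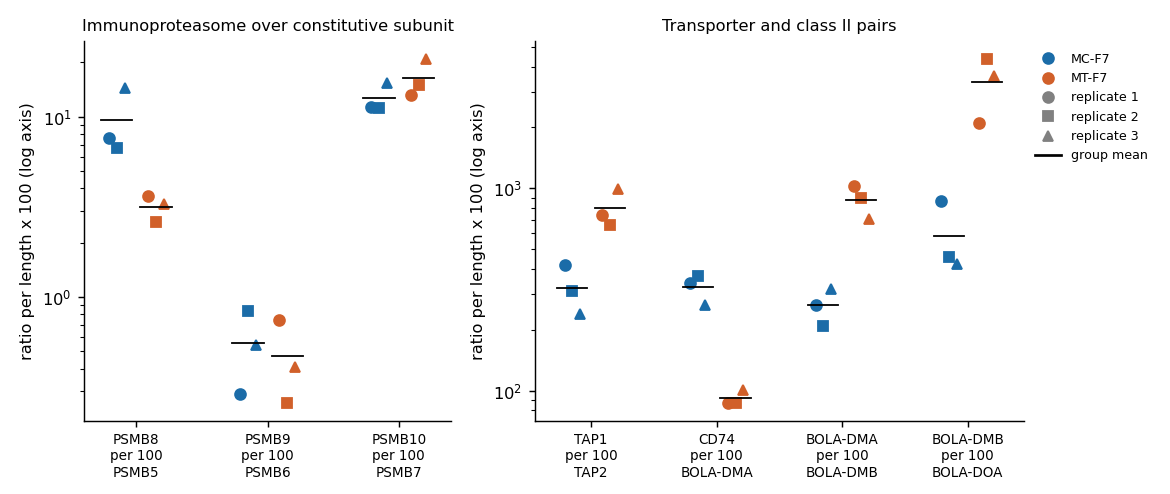
Ratios between pairs of genes in each library, from values per unit of length, multiplied by 100 and drawn on log axes, with MC-F7 in blue, MT-F7 in orange and black lines for group means. *PSMB8* lies between 6.70 and 14.5 per 100 *PSMB5* in MC-F7 and between 2.61 and 3.62 in MT-F7, while *TAP1* per 100 *TAP2* lies higher in MT-F7, and the rightmost ratio rests on 5 counts of *BOLA-DOA* in the whole of MT-F7.

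In the class II pathway all 3 genes of the list fell. *CIITA*, the coactivator on which class II transcription depends, stood at 7.78, 9.08 and 12.9 CPM in MC-F7 and at 3.78, 3.86 and 4.20 CPM in MT-F7. The MC-F7 libraries were spread and the MT-F7 libraries were tight, with a wide gap between the groups. The mean fell from 9.92 ± 2.66 to 3.95 ± 0.223 CPM, 2.51-fold, with a log2 fold change of -1.33 (SE 0.232, adjusted p = 0.00127).

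*CD74*, the invariant chain, stood at 26.0, 22.9 and 26.0 CPM in MC-F7 and at 8.12, 7.07 and 11.6 CPM in MT-F7. The MC-F7 libraries were close to each other, and the highest MT-F7 library was far below the lowest of them. The mean fell from 25.0 ± 1.79 to 8.93 ± 2.37 CPM, 2.80-fold, with a log2 fold change of -1.49 (SE 0.201, adjusted p = 1.96e-04).

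*BOLA-DOA*, the alpha chain of DO, which inhibits peptide loading by DM, had 14, 29 and 29 counts in MC-F7 against 2, 1 and 2 in MT-F7. All MT-F7 libraries were below 3 counts. The sums of 72 and 5 counts gave, after adjustment for library size, a level 15.8 times as high in MC-F7, with a 95% counting interval from 6.45 to 50.0, and the adjusted p was 9.1e-04 in a test that the gene entered only through MC-F7. The fitted log2 fold change of -3.88 (SE 0.646) depends on how such low counts are handled. The gene for its partner chain, *BOLA-DOB*, had 0, 2 and 0 counts in MC-F7 against 1, 1 and 0 in MT-F7.

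Of the 13 other class II chain genes listed, 12 were in the count table and 5 could be tested, of which 3 fell and 0 rose. *BOLA-DRA* and *BLA-DQB* reached the filter on low counts only through MC-F7, where they were high, and of the 3 chains that met its minimum in every library 1 fell, with a median log2 fold change of -0.45. *BOLA-DMB*, the beta chain of DM, had 83, 91 and 84 counts in MC-F7 against 29, 30 and 49 in MT-F7. All MT-F7 libraries were well below the MC-F7 libraries, and the gene passed in 6 of 6 fits that left out a library (log2 fold change -1.37, SE 0.310, adjusted p = 0.0065). *BOLA-DMA*, the alpha chain of DM, did not pass: it had 142, 122 and 171 counts in MC-F7 against 191, 173 and 222 in MT-F7, at a log2 fold change of 0.30 (adjusted p = 0.388). Per unit of length *BOLA-DMA* was 267, 209 and 317 per 100 *BOLA-DMB* in MC-F7 against 1026, 898.5 and 706 in MT-F7 (exact permutation p = 0.1, adjusted p = 0.18). Both chains are needed to make a DM molecule, and the ratio of their RNAs was higher in every MT-F7 library than in any MC-F7 library.

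Apart from *BOLA-DRB3*, the chains that bind peptide had low counts. *BOLA-DRA*, the DR alpha chain, had 31, 34 and 18 counts in MC-F7 against 14, 5 and 5 in MT-F7 and passed in 2 of the 6 fits that left out a library (log2 fold change -1.90, SE 0.520, adjusted p = 0.0188). A DQ beta chain gene, listed as *BLA-DQB* and named *BOLA-DQB1* in RefSeq, had 43, 30 and 13 counts in MC-F7 against 11, 2 and 5 in MT-F7 and passed in 4 of 6 such fits (log2 fold change -2.35, SE 0.621, adjusted p = 0.0153). *BOLA-DRB3*, the DR beta chain, was the most abundant of them, with 213, 200 and 119 counts in MC-F7 against 149, 166 and 110 in MT-F7, and its groups overlapped (log2 fold change -0.45, adjusted p = 0.197). The remaining class II chain genes were too low to be tested: *BOLA-DQB* had between 4 and 16 counts per library, *BOLA-DQA5* between 0 and 7, and *BOLA-DQA2*, *BOLA-DYA*, *BOLA-DYB* and *DSB* at most 3. Polymorphic chains with near-identical copies are uncertain in such counts.

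Of 6 genes that process antigen or the invariant chain in the endosome, 1 fell, 1 rose and 4 did not pass. *CTSS*, the protease that removes the last part of the invariant chain, rose from 18, 43 and 34 counts in MC-F7 to 58, 92 and 84 in MT-F7 (log2 fold change 1.17, adjusted p = 0.0298, past the threshold in 3 of 6 fits without a library). *IFI30*, the lysosomal thiol reductase, fell from 34.0 ± 4.58 to 24.6 ± 1.28 CPM (log2 fold change -0.47, adjusted p = 0.0493, past the threshold in 1 of 6 such fits). *CD74* and *CTSS* thus changed in opposite directions.

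**Figure D3:**
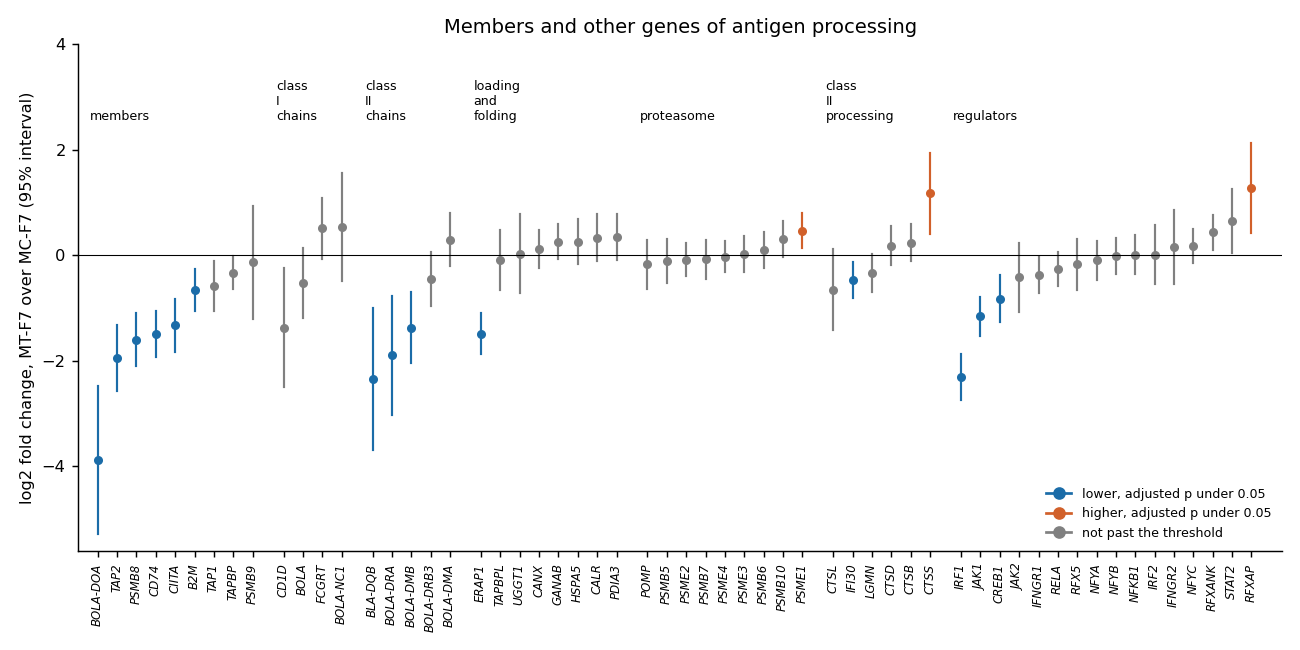
Fitted log2 fold change of MT-F7 over MC-F7 with its 95% interval for the 9 tested genes of the list (left) and for 48 other tested genes of antigen processing, by role. Blue marks genes that passed as lower, orange those that passed as higher and grey the rest: 6 of the 9 genes at the left are blue, beside 8 blue and 3 orange of the 48 others.

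Over the 60 other genes of these pathways listed, 59 were in the count table and 48 were tested, of which 8 fell, 3 rose and 37 did not pass, with a median log2 fold change of -0.02. The share that passed was 22.9%, beside 23.2% of all genes tested, and the share that passed as lower was 16.7%, beside 11.3%. Both shares include *BOLA-DRA* and *BLA-DQB*, which reached the filter only through MC-F7, where they were high. Among the 48 tested were 16 regulators of class I and class II transcription and of the interferon gamma signal. Of these regulators 3 fell and 1 rose, with a median of -0.055. *IRF1*, a transcription factor that interferon gamma induces and that acts on class I, TAP and *CIITA* promoters, had 299, 307 and 285 counts in MC-F7 against 70, 61 and 66 in MT-F7. The libraries within each group were nearly alike. The mean fell from 13.1 ± 0.321 to 2.65 ± 0.254 CPM, 4.94-fold, with a log2 fold change of -2.30 (SE 0.198, adjusted p = 5.8e-06), and it passed in 6 of 6 fits without a library. *JAK1*, a kinase at the interferon receptors, fell from 31.1 ± 2.05 to 14.0 ± 2.28 CPM (log2 fold change -1.16, adjusted p = 3.9e-04). *CREB1*, which binds class II promoters, fell from 10.8 ± 2.24 to 6.12 ± 0.0937 CPM (log2 fold change -0.83, adjusted p = 0.0106). Both *JAK1* and *CREB1* also passed in 6 of 6 such fits. The kinase gene *JAK2* and the receptor genes *IFNGR1* and *IFNGR2* did not pass (adjusted p = 0.352, 0.102 and 0.769).

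*IRF2*, *RFX5*, *RFXAP* and *RFXANK* did not pass as lower. The log2 fold change was 0.01 for *IRF2* (adjusted p = 0.978), with overlapping groups. *RFX5*, *RFXAP* and *RFXANK* form the RFX complex, which with CIITA binds class II promoters. *RFX5* was at 10.1 ± 2.0 CPM in MC-F7 and 8.99 ± 2.07 CPM in MT-F7 (adjusted p = 0.620). *RFXAP* rose from 32, 36 and 10 counts to 64, 80 and 62 (log2 fold change 1.28, adjusted p = 0.0325, past the threshold in 2 of 6 fits without a library). *RFXANK* stood at 109, 84.5 and 82.9 CPM in MC-F7 and at 119, 127 and 128 CPM in MT-F7, where every library was higher, and did not pass (log2 fold change 0.44, adjusted p = 0.059).

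To set the levels of different genes side by side, the values per unit of length were rescaled to 1000000 per library. In MC-F7 the order was *TAPBP* with 31.0 ± 2.17, *B2M* with 22.4 ± 4.65, *CD74* with 20.8 ± 0.813, *PSMB8* with 12.3 ± 1.80, *TAP1* with 3.92 ± 0.495, *CIITA* with 2.67 ± 0.646, *PSMB9* with 1.76 ± 0.910, *TAP2* with 1.27 ± 0.301, *BOLA-DOA* with 0.474 ± 0.173 and *NLRC5* with 0.0589 ± 0.0168 TPM. *B2M* and *CD74* overlapped between libraries, as did *CIITA* with *PSMB9* and *PSMB9* with *TAP2*, and the other neighbours in this order did not. In MT-F7 *TAPBP* stood at 25.95 ± 1.67, *B2M* at 14.9 ± 1.64, *CD74* at 7.80 ± 1.69, *PSMB8* at 4.29 ± 0.902, *TAP1* at 2.75 ± 0.582, *PSMB9* at 1.69 ± 0.837, *CIITA* at 1.13 ± 0.0304, *TAP2* at 0.346 ± 0.00587, *NLRC5* at 0.0792 ± 0.0990 and *BOLA-DOA* at 0.0318 ± 0.0110 TPM. Here *PSMB9* overlapped with both *TAP1* and *CIITA*, and *BOLA-DOA* with *NLRC5*. By mean, the tapasin gene and the light chain gene thus headed the order in both groups. In replicate 3 of MC-F7, however, *CD74* was above *B2M* (20.9 against 17.0 TPM). *CD74* was 339, 371 and 267 per 100 *BOLA-DMA* in MC-F7 against 87.4, 86.6 and 101 in MT-F7 (exact permutation p = 0.1, adjusted p = 0.18). Per 100 *BOLA-DRA*, *CD74* was 2870, 2461 and 4682 in MC-F7 against 2205, 5538 and 8262 in MT-F7. The groups overlapped in this ratio, which rests on low counts of *BOLA-DRA* (exact permutation p = 0.5).

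*TAP1*, *TAP2*, *PSMB8*, *PSMB9*, *BOLA-DOA* and *TAPBP* lie in 1 stretch of the bovine MHC, and the 22 protein-coding genes from *BOLA-DOB* to *TAPBP* were followed in RefSeq order, a window chosen after the values had been seen, with *LOC618733* left out as a repeat of *TAP2*. Of the 20 that were tested, 4 fell, 1 rose and 15 did not pass, with a median log2 fold change of -0.13. The share that passed was 25.0%, close to the 23.2% of all genes tested. As lower, 20.0% passed, beside 11.3% of all genes tested. The shares of the window include the genes of the list. The genes that fell were *TAP2*, *PSMB8*, *BOLA-DMB* and *BOLA-DOA*, of which the first and second are neighbours. Only *BOLA-DMB* of these was outside the list, and *BOLA-DOA* reached the filter only through MC-F7, where it was high. *TAP1* beside *PSMB8*, *BOLA-DMA* beside *BOLA-DMB*, and *BRD2*, a chromatin reader beside *BOLA-DOA* (log2 fold change -0.06, adjusted p = 0.821), did not pass. The gene that rose was *HSD17B8*, a steroid dehydrogenase, from 36.3 to 55.6 CPM (log2 fold change 0.62, adjusted p = 0.0107).

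**Figure D4:**
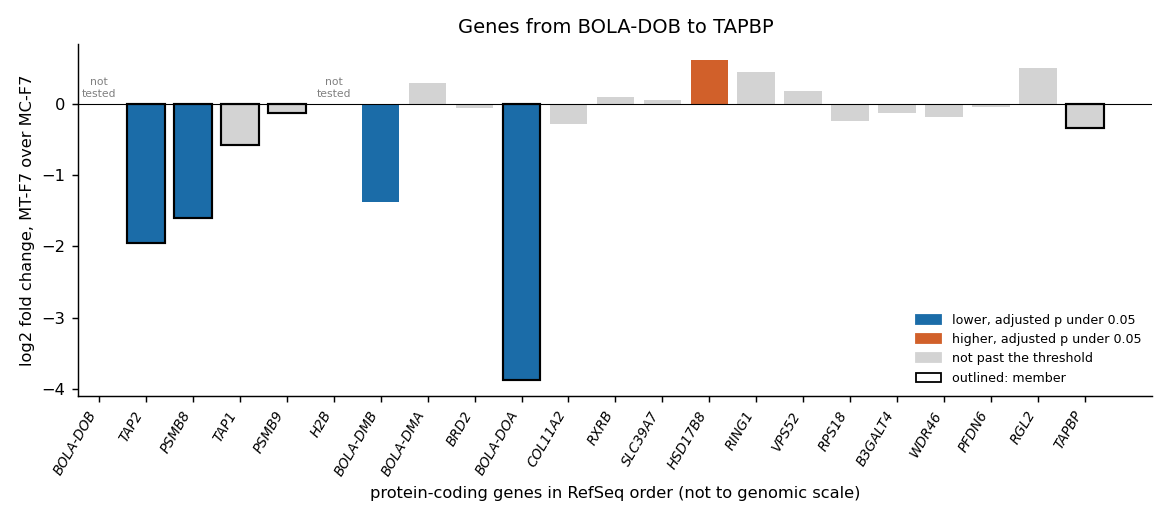
Fitted log2 fold change of MT-F7 over MC-F7 (bars from 0) for 22 neighbouring protein-coding genes in RefSeq order, evenly spaced and not to scale, with the genes of the list outlined. Blue bars passed as lower, the orange bar as higher and grey bars did not pass: the 4 blue bars stand at *TAP2*, *PSMB8*, *BOLA-DMB* and *BOLA-DOA*.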

How the data were processed

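The authors aligned the reads with HISAT2 (2.0.5) to the bovine genome of Ensembl, counted them on genes with featureCounts (1.5.0-p3) and deposited raw counts per Entrez gene. The build and the use of strand are not given in the sources used here, but no other protein-coding gene of RefSeq (assembly ARS-UCD2.0) overlaps any of the 10. The count columns named M1 were read as the 1M samples. The authors also deposited values that they call TPM, in proportion to the counts of each gene. Their sums per library were between 154763 and 164394, and they were rescaled where levels of genes were compared.

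Genes were kept by filterByExpr (minimum count 10), which left 13001, and the 2 groups were compared by the quasi-likelihood test of edgeR 4.0.16 (R 4.3.3) with TMM factors of 0.971 to 1.04, two-sided, with Benjamini-Hochberg adjustment over all tested genes. Fold changes without a log are ratios of mean CPM. Ratios of genes were compared by exact permutation (scipy 1.17.1). On data simulated for this comparison (13042 genes in the step) the test recovered 83 of 100 genes changed by 1 and 100 of 100 changed by 2 on the log2 scale, with 12 false calls of 195. The simulation gave all genes 1 dispersion (0.0342) and changed far fewer genes than passed here. It changed only genes above a minimum mean count, which *BOLA-DOA* was below, so these rates do not cover such low genes. Named are all 10 genes and, of each pathway list, up to 6 genes past the threshold, with the class II chains, proteasome counterparts, *RFX5*, *IRF1* and *IRF2* whatever their values. *BOLA*, *ERAP2*, *RFXANK*, *JAK2*, *IFNGR1*, *IFNGR2*, some markers of cell types and the genes of the MHC window were named after their values were seen. A listed regulator is not reported here and was left out of the list's counts. The genes and lists were chosen with earlier results of these data known. No promoter or protein sequence was analysed here.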

Additional observations from a re-analysis of the deposited data

How the results depend on the processing

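The replicate numbers did not pair all libraries: deviations of libraries with the same number correlated at 0.167, 0.0708 and 0.505. Replicates 1 and 2 of MC-F7 correlated more with another number of MT-F7 (0.368 and 0.221). Replicate 3 of MC-F7 did not (at most -0.302), so those libraries may share an effect. With a replicate block, 4674 genes passed in place of 3016 (2301 lower, 2373 higher), 16 other pathway genes in place of 11, and 8 genes of the list, since *TAP1* (adjusted p = 0.0234) and *TAPBP* (0.0380) were added. Without each library in turn, between 1914 (without replicate 2 of MC-F7) and 3093 genes and between 5 (without replicate 2 of MT-F7) and 12 other pathway genes passed, and *PSMB9* lay between -0.58 and 0.32 on the log2 scale, turning positive without replicate 2 of MC-F7 (0.32) or of MT-F7 (0.17). Over 17 alternatives, with DESeq2 1.42.0, RLE factors, library size only, other filters, no mitochondrial genes, repeated rows kept once (added after seeing the data) and limma 3.58.1 on TPM among them, *TAP2*, *PSMB8*, *CIITA* and *CD74* passed as lower in 17, *BOLA-DOA* in the 16 that tested it, and *B2M* in 11. *B2M* missed in the 3 fits to TPM (adjusted p 0.0972 to 0.15, the lowest after rescaling, which was added after seeing the data). Of all genes, log2(TPM + 1) called 817 lower and 1545 higher, against 1463 and 1553 with counts. Counts were too low to test *NLRC5* and 7 of 12 other class II chain genes.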
